A study of Mus musculus with 4 samples.

Results

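The loss of the microRNA miR-146a was examined in Ly6Chigh monocytes of the mouse spleen, by setting 1 array of knockout cells (KO) against 1 array of control cells (WT). A gene entered when its signal was at least 100 on the brighter of the 2 Ly6Chigh arrays, which kept 7064 of the 18194 genes named by a single symbol. A gene's value was that of its probe set with the highest mean signal, and its other probe sets served as a check. The study hybridised RNA from monocyte pools to Affymetrix Mouse 430_2 arrays, which read a transcript near its polyadenylated end with sets of short probes, and had 4 arrays in all. The 4 pools were KO Ly6Chigh, WT Ly6Chigh, KO Ly6Clow and WT Ly6Clow, with 1 array each. KO mice are labelled as strain B6(FVB)-Mir146tm1.1Bal/J and carry a deletion of Mir146 in all cells. WT mice are labelled as C57BL/6 and, in another label, as control littermates. All pools were CD11b+ spleen cells enriched on magnetic beads, stained for Ly6C and sorted, with no stimulus named. No age or sex is given for the mice. Each pool held cells of several mice, so the mice of a group share 1 measurement, and no difference here has a replicate, an error or a p-value. The labels' protocol can be read as a different red cell lysis buffer for each genotype. On that reading, buffer and genotype cannot be told apart.

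A microRNA guides the silencing complex to messenger RNAs that pair with its seed, and the paired transcript is destabilised and translated less. miR-146a is induced by NF-kB in myeloid cells and represses Traf6 and Irak1, adaptors that carry signals from Toll-like and interleukin 1 receptors back to NF-kB, so it is known as a brake on inflammatory signalling. Ly6Chigh monocytes leave the marrow through the chemokine receptor Ccr2, enter inflamed tissue and there produce cytokines or turn into macrophages. The Ly6Clow subset patrols blood vessels and depends on the nuclear receptor Nr4a1.

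The sequence removed in the KO mice is shown first, since it defines the manipulation. The mature strands of miR-146a and of its paralog miR-146b are given 5′ to 3′ from RefSeq, assembly GRCm38.p6, with the seed (bases 2 to 8) in capitals.
mmu-miR-146a-5p: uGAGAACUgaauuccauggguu
mmu-miR-146b-5p: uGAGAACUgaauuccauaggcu
The first lies on the minus strand at chr11:43374435-43374456 and the second on the plus strand at chr19:46342790-46342811. They are the same at 20 of 22 positions and share the seed, which no other of the 1738 mature sequences in that table carries (2 of 1738). The microRNAs themselves were not analysed here, so the genotype was not checked at its target.

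The pools matched their labels by subset markers. Summed over the 14 markers of Ly6Chigh monocytes analysed (of 17 listed), the signal was 46076.3 in KO Ly6Chigh and 50907.1 in WT Ly6Chigh, against 12495.5 in KO Ly6Clow and 14636.1 in WT Ly6Clow. Markers of Ly6Clow monocytes were the other way round, at 13094.0 and 15492.0 in the KO and WT Ly6Chigh pools and at 56692.1 and 61604.5 in the KO and WT Ly6Clow pools. All 12 markers of myeloid cells in general were Present in both Ly6Chigh pools. T cell markers summed to 95.5 in KO and 103.6 in WT, with 2 of 9 Present on each array and Cd3d, Cd3e and Cd3g on neither. B cell markers summed to 287.9 in KO and 401.9 in WT. Of 10 analysed, 3 were Present in KO and 5 in WT, with Cd79a, Pax5 and Ebf1 Present on neither array. Markers of plasma cells (5784.5 in KO, 5516.7 in WT), plasmacytoid dendritic cells (1338.6 in KO, 1474.0 in WT), red pulp macrophages (774.0 in KO, 832.4 in WT) and platelets (489.9 in KO, 411.9 in WT) were Present in part, while Jchain, Siglech, Timd4 and Gp9 were Present on neither array. The part of such cells in the results was not tested. No marker of erythroid cells or of eosinophils, basophils and mast cells was Present (0 on either array). The arrays called 48.1% (KO Ly6Chigh) and 48.6% (WT Ly6Chigh) of probe sets Present. The ratio of 3′ to 5′ signal, which climbs when RNA is degraded, was 1.28 in KO and 1.20 in WT for actin and 0.905 in KO and 0.894 in WT for Gapdh.

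Most genes differed little between the KO and WT Ly6Chigh pools. The log2 ratio of KO over WT had a median of -0.03 and an SD of 0.274 across the 7064 genes, and the central 95% of genes lay between -0.51 and 0.55. Of these genes, 3145 were above 0 and 3916 below 0. A gene is called higher or lower here when its signals differed at least 2-fold and the brighter of them was detected (called Present). This rule called 28 genes, 0.396% of those examined, with 17 higher in KO (0.241%) and 11 lower in KO (0.156%). A looser limit of 1.5-fold took in 262 genes (3.71%), 145 higher (2.05%) and 117 lower (1.66%). With 32 added to both signals, which damps ratios of dim genes, 17 of the 28 remained (11 higher and 6 lower). All 28 genes of the stricter rule were Present on both arrays. Of the 28, 11 had more than 1 probe set Present on the brighter array, and in all 11 these probe sets went the same way. The remaining 17 rest on a single Present probe set. In pooled cells, a change in the share of a cell type and a change in RNA per cell cannot be told apart. The authors' deposited table, which compared the same 2 arrays probe by probe, called 25 of the 28 in the same direction, 0 in the opposite direction and 3 as not changed. It called many more genes changed, 1417 of the 7064 (20.1%), with 651 higher (9.22%) and 766 lower (10.8%), but only 19 of them higher and 10 lower by 2-fold or more.

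**Figure D1:**
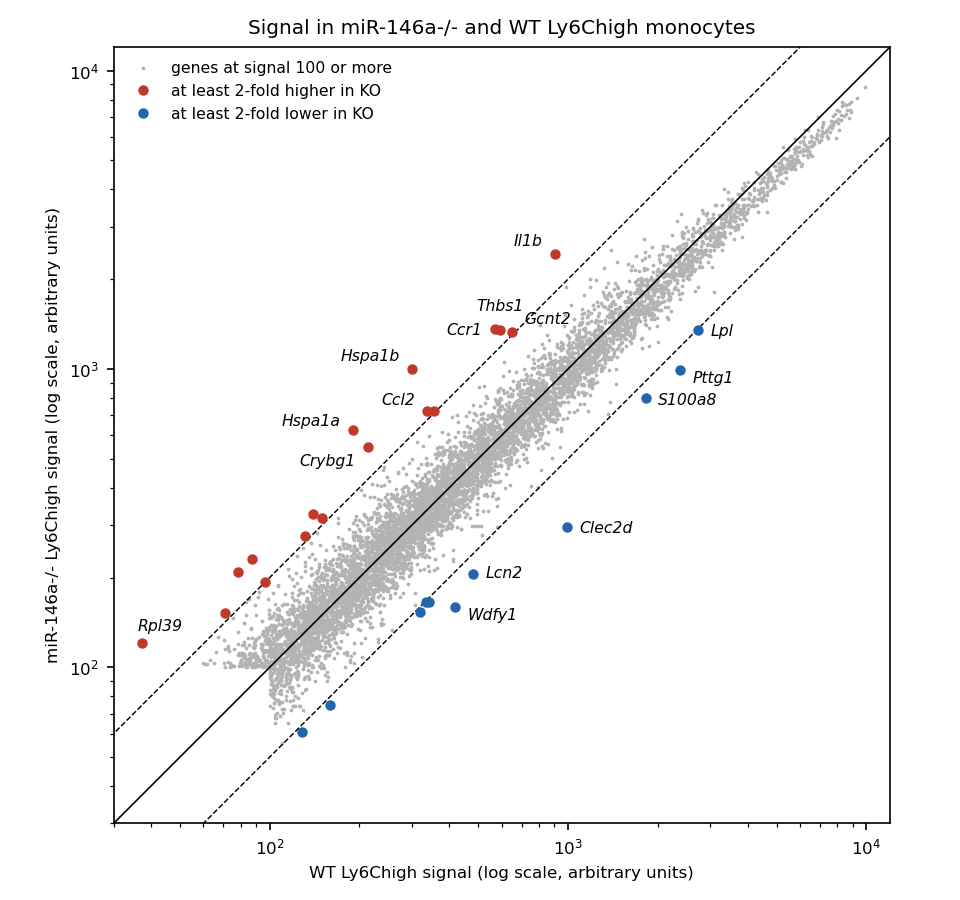
Signal of each of the 7064 genes on the KO Ly6Chigh array (vertical, log scale, arbitrary units) against the WT Ly6Chigh array (horizontal, log scale, arbitrary units). Dashed lines mark 2-fold; the 17 genes called higher in KO lie above the upper line and the 11 called lower below the lower line, while most genes stay near the solid line of equal signal.

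The largest differences towards KO were in Hspa1b and Hspa1a, inducible chaperone genes of the heat shock protein family that refolds damaged proteins. Hspa1b had a signal of 996.8 in KO Ly6Chigh and 300.4 in WT Ly6Chigh, and of 1768.9 in KO Ly6Clow and 891.8 in WT Ly6Clow. The log2 ratio was 1.73 in Ly6Chigh, and its 3 probe sets gave 1.73 to 1.94. Hspa1a had 622.3 in KO and 190.6 in WT Ly6Chigh cells (log2 1.71) and 510.5 in KO and 239.4 in WT Ly6Clow cells (log2 1.09). KO was thus the brighter pool of both subsets for both genes, and Hspa1a is 1 of only 2 genes past 2-fold in the same direction in both subsets, the other being Wdfy1. The probe sets of Hspa1a and Hspa1b cannot be taken as independent, since the genes are near-identical copies. Hsph1, a nucleotide exchange factor of these chaperones, had 470.3 in KO and 242.6 in WT (log2 0.96), and its 2 probe sets gave 0.96 and 1.33. The rest of the heat shock list stayed under 1.5-fold. Of 24 chaperones and co-chaperones analysed at this signal, 3 were past 1.5-fold higher (the 3 just named), against 2.05% of all genes, and 0 were lower. The median was 0.06, or 0.19 with the mean of each gene's Present probe sets. In sign, 13 of the 24 were above 0 and 11 below, or 8 below after quantile normalization. Stip1 and Fkbp4 were at 0.54, Hsp90aa1 at 0.42, Dnajb1 at 0.20, Hspa8, the constitutive member, at -0.15 and Bag3 at -0.46.

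Heat shock factor binds inverted repeats of the letters GAA near the start site. The core was searched as TTCNNGAA or GAANNTTC on both strands of a 300-base promoter window (250 bases before to 50 after each start, RefSeq, GRCm38.p6). It was found in 5 of the 15 genes called higher that had a promoter in the table (33.3%) and in 0 of 9 called lower. At 1.5-fold it was in 21 of 116 genes higher (18.1%) and in 8 of 92 lower (8.70%), against 808 of the 5850 genes at signal 100 with a promoter (13.8%) and 15.1% of all 32851 windows. Among the heat shock chaperones the same core was found in 11 of 20 (55%). That list was chosen for its heat shock response, so this share says nothing about the knockout. The NF-kB consensus was in 0 of the 15 genes called higher and 0 of the 9 called lower. At 1.5-fold it was in 7 of the 116 genes higher (6.03%) and in 4 of the 92 lower (4.35%), against 353 of the 5850 (6.03%). The 5 genes called higher that hold the core include the near-identical pair, whose windows are the same at 296 of 300 positions. They also include Tcl1b3, which the authors' deposited table called not changed. The 150 bases before the start are given from RefSeq for Hspa1a, Hspa1b and Hsph1, with the core in capitals. Only these 3 of their list were past 1.5-fold.
Hspa1a: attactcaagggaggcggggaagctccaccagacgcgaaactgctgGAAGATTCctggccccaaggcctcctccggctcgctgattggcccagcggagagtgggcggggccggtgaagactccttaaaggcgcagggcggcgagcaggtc
Hspa1b: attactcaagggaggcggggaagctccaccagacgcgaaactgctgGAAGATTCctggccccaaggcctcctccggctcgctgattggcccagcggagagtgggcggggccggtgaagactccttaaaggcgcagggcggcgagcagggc
Hsph1: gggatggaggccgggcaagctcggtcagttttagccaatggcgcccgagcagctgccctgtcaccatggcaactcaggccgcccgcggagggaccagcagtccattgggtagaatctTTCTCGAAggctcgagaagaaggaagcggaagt
All 3 are on the minus strand, at chr17:34972157-34972306 (Hspa1a), chr17:34959239-34959388 (Hspa1b) and chr5:149636337-149636486 (Hsph1). A match of these letters is a description of the sequence and not a measured binding site.

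Il1b, the gene of the inflammatory cytokine interleukin 1 beta, was called higher in KO. Its signal was 2425.7 in KO Ly6Chigh and 906.1 in WT Ly6Chigh, a log2 ratio of 1.42, against 3740.3 in KO Ly6Clow and 2787.9 in WT Ly6Clow (log2 0.42). WT Ly6Chigh was the lowest of the 4 pools, and both Ly6Clow pools were above both Ly6Chigh pools. Among 12 inflammatory cytokine genes and their antagonists at this signal, only Il1b was past 1.5-fold (1 of 12, against 3.71% of all genes). The median of the 12 was 0.14, or 0.30 with the mean of each gene's probe sets. Genes of the inflammasome that matures the cytokine were at 0.46 (Nlrp3), 0.14 (Casp1) and -0.14 (Pycard), and the antagonist Il1rn was at 0.42 (101.1 in KO and 75.5 in WT).

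Chemokine ligands had the highest median of the pathway lists with at least 5 genes, 0.42 over 8 ligands. Only Ccl2 of them passed 1.5-fold (1 of 8, against 3.71% of all genes). Ccl2, which attracts monocytes through Ccr2, had 722.7 in KO and 337.8 in WT Ly6Chigh cells (log2 1.10) and was called Absent in both Ly6Clow pools. Ccl4 was at 0.57, Cxcl10 at 0.49, Ccl3 at 0.42 and Cxcl2 at 0.41, while the abundant myeloid ligands Ccl6 and Ccl9 were at -0.25 and -0.12. Of the receptors, Ccr1, which binds Ccl3 and other inflammatory chemokines, had 1365.8 in KO and 567.5 in WT Ly6Chigh cells, against 41.8 in KO and 34.0 in WT Ly6Clow cells. Its log2 ratio in Ly6Chigh was 1.27, and both probe sets passed 2-fold (1.27 and 1.30). Ccr2 itself was at 5442.4 in KO and 5788.8 in WT (log2 -0.09; 4 probe sets, -0.09 to 0.44), so the receptor that defines the subset lay within the central range of all genes. The formyl peptide receptor Fpr2 was lower at log2 -0.64, with 1193.0 in KO and 1864.4 in WT Ly6Chigh, and stood at 0.39 in Ly6Clow. The list of 10 receptors had 1 gene past 1.5-fold in each direction, where 2.05% of all genes were higher and 1.66% lower. Its median was -0.14.

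Thrombospondin 1 (Thbs1), a matrix glycoprotein that binds CD36 and CD47 and activates latent TGF-beta, had 1351.4 in KO and 590.2 in WT Ly6Chigh cells, against 35.4 in KO and 31.5 in WT Ly6Clow cells. Its 2 probe sets gave 1.20 and 1.35. Versican (Vcan), a proteoglycan marking Ly6Chigh monocytes, had 1989.1 in KO and 1242.2 in WT Ly6Chigh cells (log2 0.68) and was Absent in the Ly6Clow pools. Its 5 Present probe sets all went the same way, between 0.56 and 1.61. These were the only 2 of 17 coagulation and matrix genes past 1.5-fold, where 3.71% of all genes were, and the list's median was -0.03. F11r, an adhesion molecule of tight junctions also found on leukocytes, had 231.4 in KO and 87.0 in WT (log2 1.41) and the deposited fold of the authors' table was 1.6 on the log2 scale. Gcnt2, an enzyme that branches the sugar chains of cell surface glycans, had 1325.4 in KO and 650.4 in WT Ly6Chigh cells, against 2805.3 in KO and 3095.4 in WT Ly6Clow cells. Its 5 Present probe sets gave 0.90 to 1.33 in Ly6Chigh. Gcnt2 was the only one of 17 integrin and selectin ligand genes past 1.5-fold, where 3.71% of all genes were.

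**Figure D2:**
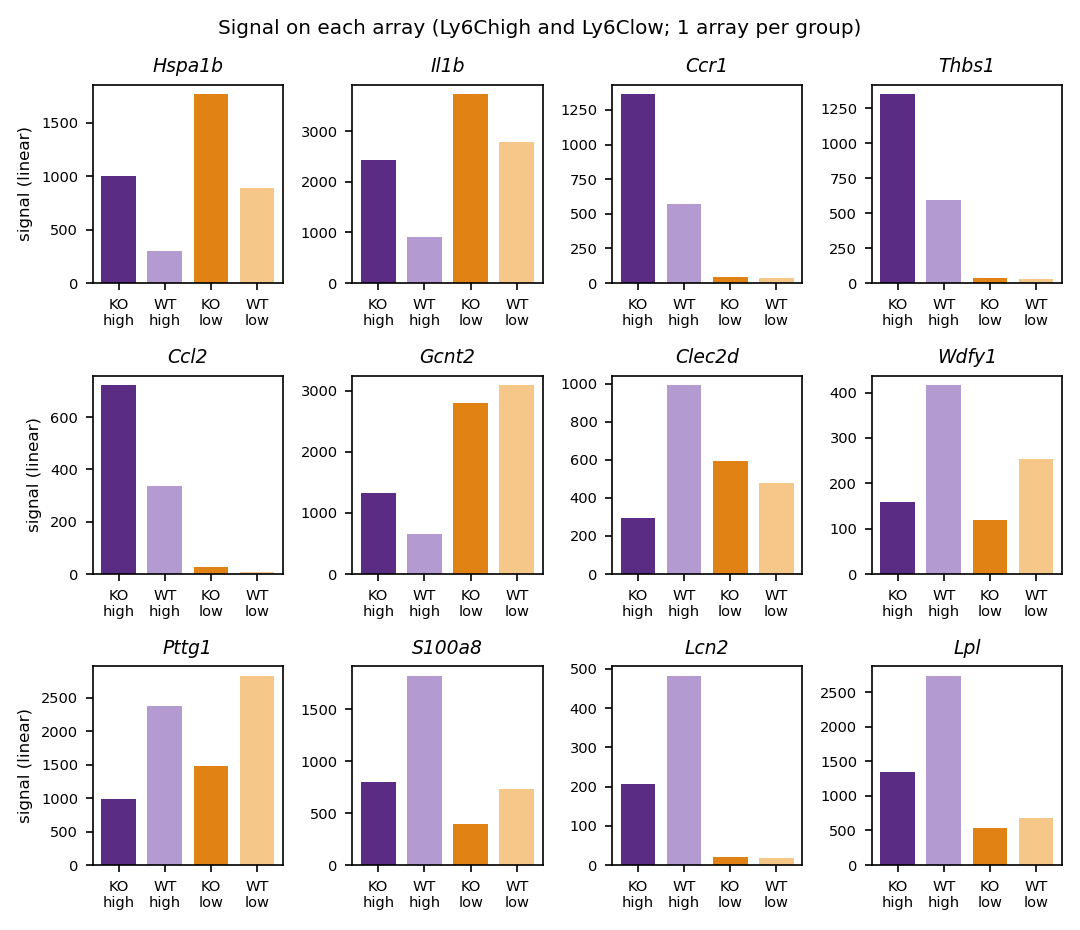
Signal (linear, arbitrary units, bars from 0) on the KO Ly6Chigh, WT Ly6Chigh, KO Ly6Clow and WT Ly6Clow arrays, in that order, for 12 genes past 2-fold in Ly6Chigh; each bar is 1 array and there are no error bars. The first 6 genes are higher on the KO Ly6Chigh array and the last 6 lower, and Ccr1, Thbs1, Ccl2 and Lcn2 have little signal in either Ly6Clow pool.

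The remaining genes called higher belong to no single group. Crybg1 had 546.7 in KO and 214.0 in WT Ly6Chigh cells (log2 1.35), and Tmem181a had 208.0 in KO and 78.3 in WT (log2 1.41). Arid5a, an RNA-binding protein that stabilises cytokine messenger RNA, had 317.6 in KO and 149.4 in WT (log2 1.09). Abtb2 was at 1.23, Cttnbp2nl at 1.10, Gm6377 at 1.02, and the receptor gene Gpr146 had 192.7 in KO and 96.2 in WT. These rest on 1 probe set each, apart from Cttnbp2nl (2, with 0.85 the lower value) and Gpr146 (3, with 0.51 the lowest). Calls for Tcl1b3 and Rpl39 were not shared by the authors' table. Rpl39, a ribosomal protein gene, had 120.5 in KO and 37.4 in WT, while the authors' deposited table gave -0.1 on the log2 scale, and Tcl1b3 had 275.5 in KO and 131.1 in WT, where that table gave 0.1.

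Clec2d, a C-type lectin that inhibits natural killer cells through Klrb1 receptors, and Wdfy1, an adaptor that helps Toll-like receptors 3 and 4 recruit Ticam1, showed the largest differences towards WT. Clec2d had 296.3 in KO and 993.9 in WT Ly6Chigh cells, and 594.9 in KO and 477.1 in WT Ly6Clow cells. The log2 ratio was thus -1.75 in Ly6Chigh and 0.32 in Ly6Clow, and the KO Ly6Chigh pool was the lowest of the 4. The authors' deposited table gave -1.3 for its single probe set. Wdfy1 had 158.8 in KO and 416.8 in WT Ly6Chigh cells, and 119.1 in KO and 253.1 in WT Ly6Clow cells. It was lower in KO in both subsets (log2 -1.39 and -1.09), and its 3 Present probe sets gave -2.13 to -1.39 in Ly6Chigh, with a mean of -1.83. The authors' deposited table gave -1.5 for the probe set used, so which of the 2 genes differed more depends on the values taken.

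Pttg1, which encodes securin, the inhibitor of separase, is the gene nearest to Mir146 on one side among those analysed. Its signal was 988.5 in KO and 2372.6 in WT Ly6Chigh cells (log2 -1.26), and 1484.0 in KO and 2825.6 in WT Ly6Clow cells (log2 -0.93). Its 3 probe sets all gave lower values in KO Ly6Chigh, between -1.26 and -0.29, so they differ in size. Of 25 analysed genes on each side of Mir146 on chromosome 11, 18 reached signal 100, 1 of these was past 2-fold (Pttg1), 3 were past 1.5-fold, all lower in KO, and their median was -0.08. Over all genes, 0.396% were past 2-fold and 1.66% past 1.5-fold lower. The other two, which these counts picked out, were Havcr2, the receptor TIM-3, with 121.7 in KO and 230.1 in WT Ly6Chigh cells (log2 -0.92), and Mat2b, a regulatory subunit of methionine adenosyltransferase, with 619.8 in KO and 948.4 in WT (log2 -0.61). In Ly6Clow these stood at -0.87 and -0.70. Whether sequence around the deletion differs between the strains was not tested. Of 5 mitosis genes at this signal, Pttg1 was the only one past 1.5-fold.

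The genes S100a8, S100a9 and Lcn2, which neutrophils also express, were lower in KO. S100a8, a calcium-binding protein and subunit of calprotectin, had 796.5 in KO and 1823.4 in WT Ly6Chigh cells (log2 -1.19), and 398.9 in KO and 731.2 in WT Ly6Clow cells (log2 -0.87). Its partner S100a9 had 227.2 in KO and 410.3 in WT Ly6Chigh cells (log2 -0.85). Lcn2, a lipocalin that withholds iron from bacteria, had 205.8 in KO and 482.0 in WT Ly6Chigh cells (log2 -1.23) and 19.2 in KO and 18.8 in WT Ly6Clow cells. All 9 S100 and annexin genes at this signal were below 0 in Ly6Chigh, with a median of -0.24, although only S100a8 and S100a9 passed 1.5-fold, and 8 of 9 were below 0 with a median of -0.07 after quantile normalization. The 10 neutrophil markers analysed (of 13) summed to 4375.3 in KO and 5334.0 in WT. Of these 10, 7 were Present in KO and 9 in WT, and Cxcr2 was Present on neither array. Without S100a8 and S100a9 the remaining 8 summed to 3351.6 in KO and 3100.3 in WT. That remainder is not specific to neutrophils. It holds Cxcl2 (680.3 in KO and 511.8 in WT), also counted as a chemokine ligand, and Csf3r, also counted as a general myeloid marker. The 10 granule and precursor markers analysed (of 11) summed to 492.0 in KO and 837.7 in WT, or to 286.2 in KO and 355.7 in WT without Lcn2. Of these 10, 5 were Present on each array, and Elane, Ltf, Camp and Ngp were Present on neither. The part of neutrophils in the values of S100a8, S100a9 and Lcn2 was not tested.

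Genes of lipid uptake and lysosomal lipid breakdown were also among those lower in KO. Lpl, the lipase that frees fatty acids from lipoproteins, had 1349.5 in KO and 2732.2 in WT Ly6Chigh cells, and 530.1 in KO and 682.3 in WT Ly6Clow cells. Its log2 ratio in Ly6Chigh was -1.02, just past the limit, and its second probe set gave -0.68. Apoc2, the activator of that lipase, had 1227.5 in KO and 2003.7 in WT (log2 -0.71), and the lysosomal acid lipase gene Lipa had 887.4 in KO and 1447.3 in WT (log2 -0.71; 3 probe sets, -0.71 to -0.36). These 3 of 16 lipid genes passed 1.5-fold lower, as did 1.66% of all genes, 0 passed higher, and the median was -0.23, or -0.10 with the mean of each gene's probe sets. Cd36 and Fabp4, of fatty acid uptake and transport, were at -0.55 and -0.57, and the cholesterol exporters Abca1 and Abcg1 at 0.20 and 0.19. Trem2, a lipid-sensing receptor of macrophages and osteoclast precursors, had 153.9 in KO and 318.8 in WT (log2 -1.05), was Absent in both Ly6Clow pools, and has another probe set, Absent on both Ly6Chigh arrays, whose ratio ran the other way (2.39). Jdp2, a repressor of AP-1 on the same list of 8 osteoclast lineage genes, was at -0.78, and its other probe set at -0.18. The authors' deposited table gave -0.3 for Jdp2 and called no change. Cholesterol synthesis genes had 0 of 17 past 1.5-fold and a median of 0.00.

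The last 4 genes called lower were Slc36a1, a lysosomal amino acid transporter with 165.8 in KO and 335.4 in WT, Mdm1, a centriole protein with 165.6 in KO and 341.8 in WT, Ccdc85b, with 60.6 in KO and 128.6 in WT, and 1500011B03Rik, with 74.9 in KO and 159.8 in WT. For Slc36a1 the authors' deposited table gave -0.1 and called no change. The limit itself separated close values. Gpr146 and Lpl (-1.02) lay just inside 2-fold, and just outside were Ciita (0.99), Scel (0.98), Reep4 (-0.98) and Nnt (-0.98). Nnt, a mitochondrial transhydrogenase whose gene is partly deleted in the C57BL/6J substrain, had 401.5 in KO and 790.9 in WT Ly6Chigh cells and was at -1.10 in Ly6Clow. At the signal limit, Strbp (100.0), 1110065P20Rik and Tbccd1 (both 100.1) entered, and Gadd45a, Leo1 and Smug1 (all 99.9) did not.

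**Figure D3:**
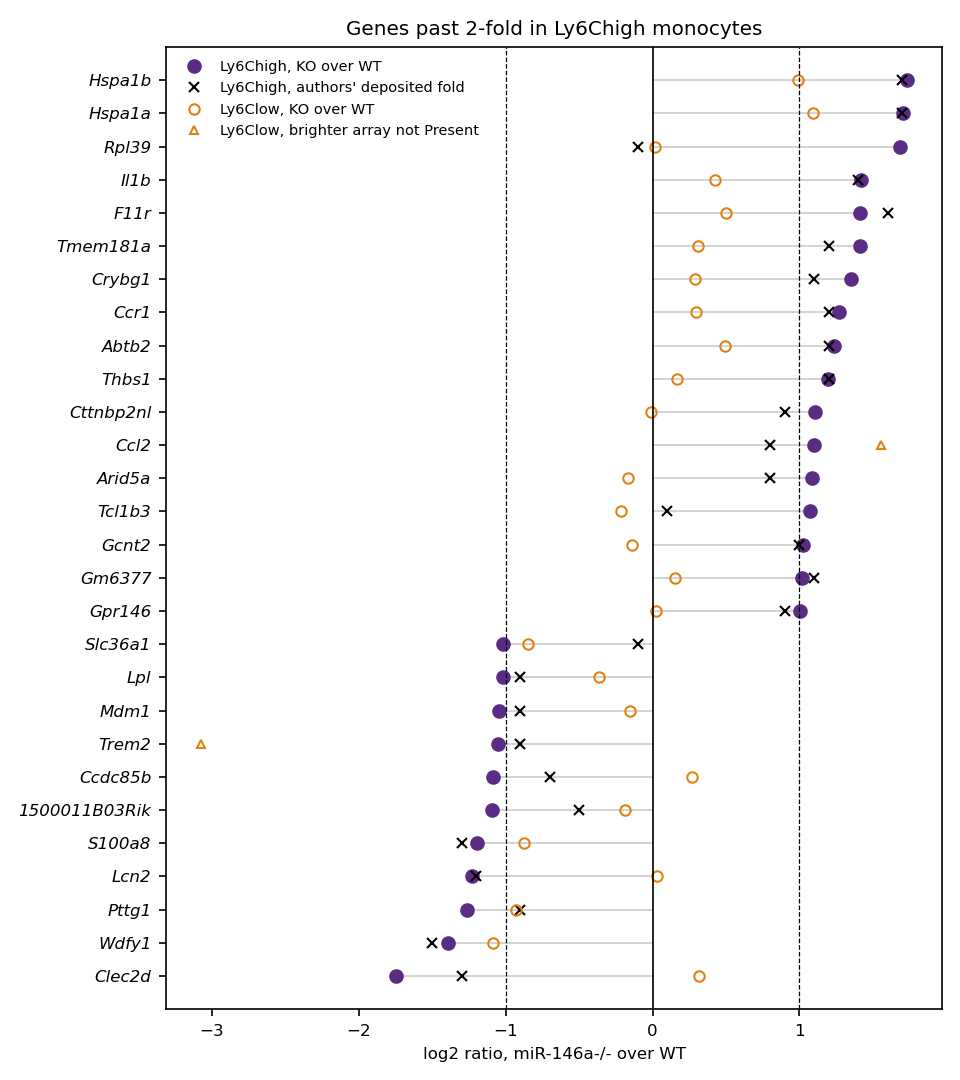
Log2 ratio of KO over WT for the 28 genes past 2-fold in Ly6Chigh (filled circles), with the authors' deposited fold for the same 2 arrays (crosses) and the ratio in Ly6Clow (open circles; triangles where the brighter Ly6Clow array was not called Present). Crosses lie farthest from the filled circles for Rpl39, Tcl1b3 and Slc36a1, and Clec2d is the gene with the widest gap between the subsets among those Present in both.

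Targets of miR-146a described in the literature hardly differed. Of 27 listed, 26 were analysed and 18 reached signal 100, and 0 of these passed 1.5-fold in either direction, where 3.71% of all genes did. At that share fewer than 1 of 18 genes would be called, so the count says little about smaller differences. Their median was 0.03, against -0.03 over all genes, with 10 above 0 and 8 below, and their range ran from -0.25 (Rac1) to 0.47 (Card10). Traf6, the ubiquitin ligase at the head of the pathway, had 160.6 in KO and 154.6 in WT Ly6Chigh cells (log2 0.05), and its 3 Present probe sets spread from -0.36 to 0.45. Irak1, the kinase upstream of it, had 1410.1 in KO and 1493.4 in WT (log2 -0.08), with all 4 probe sets at or below -0.08. Relb, a subunit of the non-canonical NF-kB pathway, had 170.2 in KO and 167.7 in WT (log2 0.02). Irak2 was at 0.19, Notch1 at 0.26, Siah2 at 0.34, Icam1 at 0.21, Cxcr4 at 0.04, Irf5 at -0.04, Smad4 and Numb at -0.03 and Fas at -0.20. For the probe sets used, the authors' deposited table called 0 of the 18 higher and 0 lower. Among the other probe sets, it called some of Irak1 lower and some of Camk2d higher. Camk2d was at 0.05, but its 7 Present probe sets ran from -0.48 to 0.99. In Ly6Clow the median of 18 targets was 0.11, and Card10, a scaffold protein, was past 1.5-fold there (log2 0.68). Ptges2, Egfr and Ccl5 were under the signal limit, and Cd40lg, Rarb, Nox4, Erbb4 and Robo1 were Present on neither Ly6Chigh array.

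The Toll-like receptor genes at this signal were above 0, except Tlr7 (-0.15), but none passed 1.5-fold. Among 24 receptors and adaptors of Toll-like and interleukin 1 signalling, 0 were past 1.5-fold higher and 1 was lower (Wdfy1). Over all genes the shares were 2.05% and 1.66%. The median of the 24 was 0.07. Tlr6, which pairs with Tlr2, was at 0.58, although the authors' deposited table gave -0.1 and called no change. Tlr4 was at 0.44, Tlr2 at 0.42, Tlr8 at 0.40 and their co-receptor Cd14 at 0.35. The adaptor Myd88 was at 0.08, Irak3 at -0.13 and Ticam1 at -0.32. Of 22 NF-kB subunits, inhibitors and kinases, 2 were past 1.5-fold higher and 0 lower, against 2.05% and 1.66% of all genes. The median of this list was 0.06. Bcl3, an atypical inhibitor that binds p50 dimers, had 451.8 in KO and 268.6 in WT Ly6Chigh cells (log2 0.75), and 233.5 in KO and 162.0 in WT Ly6Clow cells. Traf1, an adaptor induced by NF-kB, had 151.4 in KO and 99.2 in WT (log2 0.61). The feedback inhibitors Nfkbia and Tnfaip3 were at -0.19 and 0.10, Tnip1 at 0.49 and Nfkbid at 0.56, and the subunit Rela at 0.10.

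Of 37 interferon response genes, 29 were above 0 and 8 below in KO over WT, while 3145 of all 7064 genes were above 0. The median was 0.18, and 3 of the 37 were past 1.5-fold higher, where 2.05% of all genes were, and 0 lower. Mx2, a dynamin-like antiviral GTPase, had 214.4 in KO Ly6Chigh cells and 115.6, called Absent, in WT Ly6Chigh cells (log2 0.89). Eif2ak2, the RNA-dependent kinase PKR, had 433.1 in KO and 247.0 in WT (log2 0.81), but its 3 probe sets ranged from 0.19 to 0.81 and the authors' deposited table called no change. Herc6, the ligase that attaches ISG15 in mice, had 422.8 in KO and 251.8 in WT (log2 0.75), with 4 Present probe sets from 0.17 to 0.85. The mean over Present probe sets was under 1.5-fold for Herc6 (0.54) and for Eif2ak2 (0.43). Oas2 was at 0.50, Stat2 at 0.43 and Ifit2 at 0.41, against Bst2 at -0.41, Irf1 at -0.29 and Ifitm3 at -0.21. Ifi213, of the interferon-inducible p200 family, was not on the list and had 1884.5 in KO and 987.3 in WT (log2 0.93; 2 probe sets, 0.39 and 0.93). The interferon-stimulated element was searched as GAAA and GAAA with any 2 bases between them, on both strands of the same windows. It was in 16 of 29 list genes with a promoter (55.2%), in 242 of 5850 genes at signal 100 (4.14%) and in 3.44% of all windows. The list was chosen for its interferon response, so its share says nothing about the knockout. Of the genes past 1.5-fold, 7 of 116 higher (6.03%) and 5 of 92 lower (5.43%) held the element. In Ly6Clow the median of this list was 0.14.

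Immediate early genes, which answer within minutes to growth factors, stress and handling, split. Of 26, 4 were past 1.5-fold higher and 0 lower, against 2.05% and 1.66% of all genes, with a median of 0.11. Ier3 had 281.0 in KO and 144.6 in WT (log2 0.96), Jun, a subunit of AP-1, had 2005.1 in KO and 1183.9 in WT (log2 0.76; 2 probe sets, 0.76 and 0.80), and its partners Fosb and Atf3 were at 0.68 and 0.64. Fos was at -0.16, Nr4a1 at -0.12, Egr1 at -0.47 and Klf10 at -0.53, so the class did not move together. The prostaglandin-forming enzyme Ptgs2 had 316.4 in KO and 169.5 in WT (log2 0.90; 2 probe sets, 0.90 and 1.15). Socs3, a feedback inhibitor of cytokine receptors, had 2175.0 in KO and 1319.6 in WT (log2 0.72), but its 3 probe sets ranged from 0.20 to 0.72 and their mean, 0.49, is under 1.5-fold. Pim1, a kinase downstream of the same receptors, was at 0.67 and Il4ra at 0.94. Dusp16, a phosphatase of JNK, was at 0.64 and the only one of 10 dual specificity phosphatases past 1.5-fold. Its other probe set was at 0.09, and their mean, 0.36, is under 1.5-fold.

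Genes inducible by glucocorticoids included 3 of 12 past 1.5-fold lower, as were 1.66% of all genes, and 0 higher, with a median of -0.13. Ddit4, an inhibitor of mTORC1, had 295.6 in KO and 577.4 in WT Ly6Chigh cells (log2 -0.97), and 1293.4 in KO and 2042.4 in WT Ly6Clow cells (log2 -0.66). Fkbp5, a co-chaperone of the glucocorticoid receptor, had 161.4 in KO and 308.2 in WT (log2 -0.93), and Klf9 had 725.0 in KO and 1171.1 in WT (log2 -0.69), with all 5 Present probe sets between -0.95 and -0.51. The classic members Tsc22d3, Dusp1 and Per1 were at -0.07, -0.07 and 0.32, so only part of the list differed.

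Genes of the C-type lectin family had 6 of 15 past 1.5-fold higher and 1 lower (Clec2d), with a median of 0.39, while 2.05% of all genes were past that limit higher. Clec4n (Dectin-2), a receptor for fungal mannans, had 251.3 in KO and 129.1 in WT, with both probe sets near 1 (0.96 and 0.99). Clec4e (Mincle), which senses mycobacterial glycolipid, had 1408.6 in KO and 805.2 in WT Ly6Chigh cells, and 2101.9 in KO and 1566.4 in WT Ly6Clow cells. The mannose receptor Mrc1 had 191.4 in KO and 99.1 in WT (log2 0.95), and Cd209a had 291.6 in KO and 185.0 in WT (log2 0.66). Cd69, an activation marker of lymphocytes that belongs to the family, had 312.3 in KO and 199.8 in WT (log2 0.64). Clec7a (Dectin-1) was at -0.16 and Clec4a3 at -0.05. Klrk1, an activating receptor known from natural killer cells, had 149.5 in KO and 90.3 in WT (log2 0.73) and was Absent in Ly6Clow. The 10 natural killer cell markers analysed (of 11), Klrk1 among them, summed to 283.1 in KO and 177.3 in WT, and Klra7, Klra8, Gzma, Gzmb, Prf1, Nkg7 and Eomes were Present on neither Ly6Chigh array. Their part in the value of Klrk1 was not tested.

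Genes of MHC class II presentation had a median of 0.30 over 9 genes. Of these, 1 was past 1.5-fold higher and 0 lower, against 2.05% and 1.66% of all genes. Ciita, the activator of the class II genes, had 165.7 in KO and 83.5 in WT (log2 0.99; 2 probe sets, 0.61 and 0.99). H2-Eb1 was at 0.42, H2-Ab1 and Cd74 at 0.37 and H2-Aa at 0.19, against Ctss at -0.22 and Cd40 at -0.36. In Ly6Clow the median was -0.08, and whether the subsets differ was not tested. Dendritic cell markers split in sign. Of 7 at this signal, 4 were above 0 and 3 below, with a median of 0.34. The 11 analysed (of 12) summed to 1865.7 in KO and 1560.0 in WT Ly6Chigh cells, with Kmo (0.95) and Cd209a (0.66) past 1.5-fold higher and Flt3 (-0.67) lower. Without those 3 the sum was 1275.0 in KO and 1091.1 in WT. Of the 11, 7 were Present on each array, and Zbtb46, Xcr1, Itgae and Ccr7 were Present on neither. The part of dendritic cells in the class II and lectin values was not tested. Class I presentation genes had 0 of 13 past 1.5-fold and a median of -0.10.

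Genes of myeloid identity and of the subsets were mostly within 1.5-fold. Itgam, the CD11b used for the bead step, had 675.0 in KO and 573.1 in WT Ly6Chigh cells (log2 0.24), Csf1r, the receptor for macrophage colony-stimulating factor, had 6425.3 in KO and 7690.3 in WT (log2 -0.26), and the lysozyme gene Lyz2 and the master factor Spi1 were at -0.11 and -0.18. Of 30 myeloid transcription factors, 1 was past 1.5-fold in each direction, where 2.05% of all genes were higher and 1.66% lower. Hif1a, the oxygen-regulated factor, had 2737.5 in KO and 1798.3 in WT Ly6Chigh cells, with its 3 Present probe sets between 0.61 and 1.24, and was at -0.03 in Ly6Clow. Bhlhe40 had 99.5 in KO and 152.6 in WT. Markers of the Ly6Clow subset were mostly below 0 (10 of 12, median -0.34, or -0.15 with the mean of each gene's probe sets) with 0 past 1.5-fold, among them Spn (-0.37), Treml4 (-0.39), Ace (-0.48) and Cx3cr1 (-0.31). Markers of the Ly6Chigh subset had a median of -0.16 with 11 of 14 below 0 (-0.04 with 7 of 14 after quantile normalization), and Ccr1 and Vcan were the 2 past 1.5-fold, both higher. Fcgr4, an Fc receptor typical of Ly6Clow monocytes that is not on this marker list, had 460.4 in KO and 811.6 in WT Ly6Chigh cells (log2 -0.82) but 5390.2 in KO and 5558.9 in WT Ly6Clow cells.

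Smaller groups held isolated differences. In eicosanoid metabolism, the prostaglandin E2 receptor Ptger4 had 709.3 in KO and 1359.8 in WT (log2 -0.94; 2 probe sets, -0.94 and -0.53) and the 5-lipoxygenase gene Alox5 was at -0.76, opposite to Ptgs2. The survival gene Bcl2 had 124.7 in KO and 230.2 in WT Ly6Chigh cells and was at -0.90 in Ly6Clow, and its antagonist Bbc3 (Puma) was at -0.60. The inhibitory collagen receptor Lair1 had 278.5 in KO and 514.8 in WT Ly6Chigh cells (3 probe sets, -1.01 to -0.80) and was at 0.28 in Ly6Clow. In glycolysis, Slc2a1, the glucose transporter, was at 0.62 (3 probe sets, 0.44 to 0.62) and Hif1a was the other gene of 16 past 1.5-fold. The receptor gene Acvr2a was at 0.79 (2 probe sets, 0.48 and 0.79), the helicase subunit Mcm4 at 0.76 (2 probe sets, 0.20 and 0.76), and the CDK inhibitor Cdkn2c at -0.72, each the only gene past 1.5-fold of its list. The authors' deposited table gave 0.4 for Acvr2a and for Mcm4. The probe sets of Lifr disagreed in sign (-0.52 to 0.71). Notch pathway genes (0 of 11), Schlafen genes (0 of 5) and cathepsins (0 of 12) had none past 1.5-fold in either direction. Bright genes with several Present probe sets that went the same way were also Kdm7a, a histone demethylase (2506.1 in KO, 1396.0 in WT, log2 0.84), Erdr1 (0.88), the stress factor Atf4 (0.79), the splicing kinase Prpf4b (0.79), Rbm26 (0.72) and the nuclear pore protein Ranbp2 (0.65). Lower in the same way were Cd24a (-0.78), Rbpms (-0.73), Ypel2 (-0.65), the mitophagy kinase Pink1 (-0.61), Ninj1 (-0.60), which ruptures the membrane of dying cells, Abhd12 (-0.58) and Arpc5l (-0.57), the last 2 just under 1.5-fold. The size differed between Present probe sets, from 0.03 to 0.72 in Rbm26, 0.17 to 0.87 in Prpf4b, -0.88 to -0.09 in Rbpms and -0.61 to -0.24 in Pink1. The means of these probe sets were 0.43, 0.55, -0.55 and -0.42, all under 1.5-fold.

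**Figure D4:**
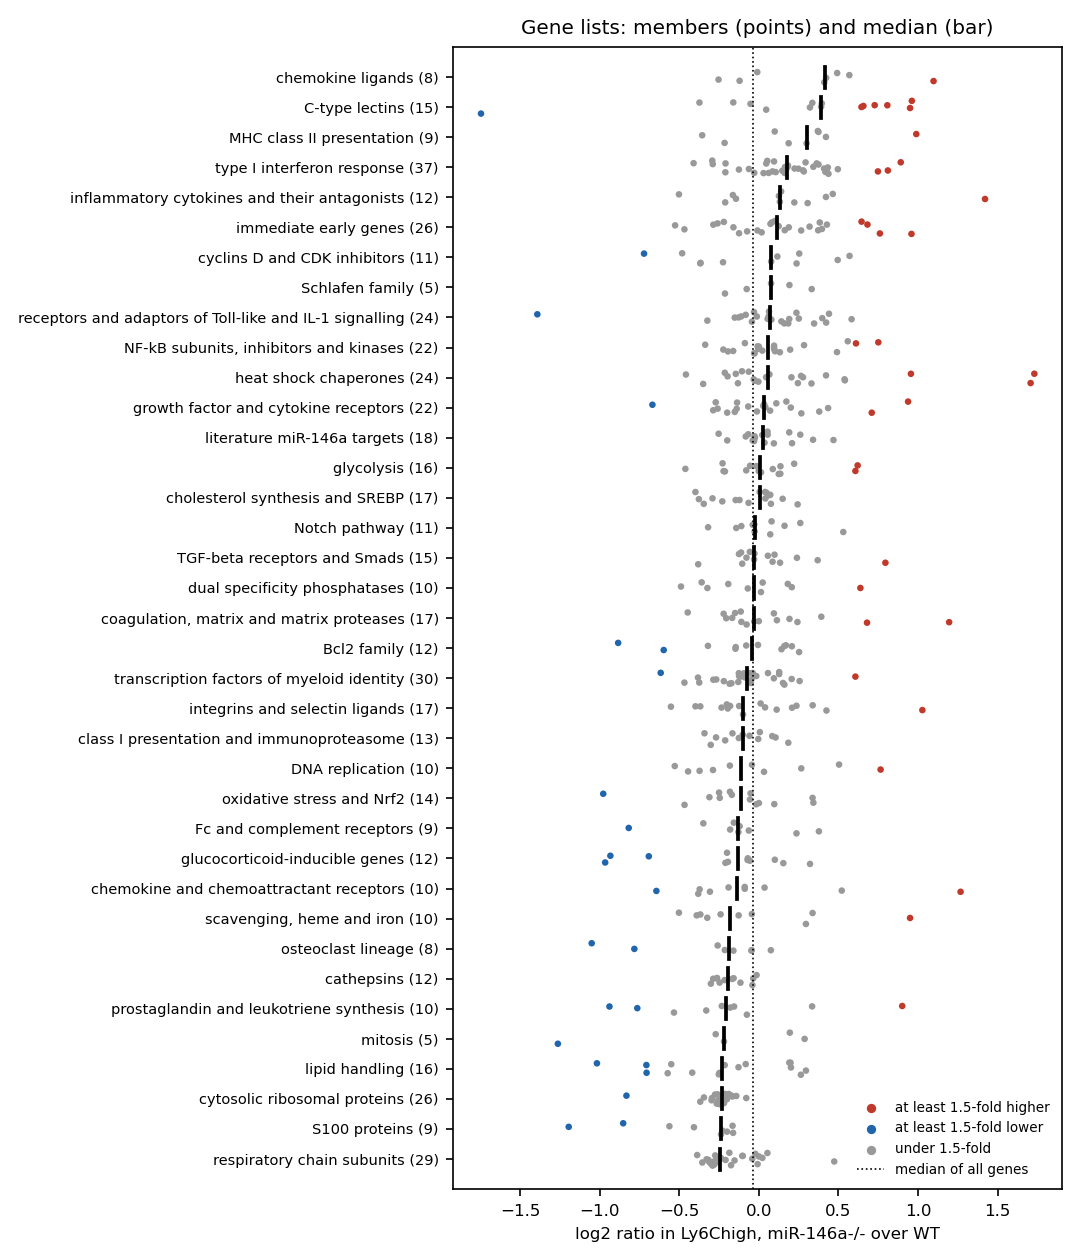
Log2 ratio of KO over WT in Ly6Chigh for every gene at signal 100 (points) of the pathway lists with at least 5 such genes, whose number is in parentheses; black bars are list medians, the dotted line is the median of all 7064 genes, red and blue points are past 1.5-fold higher and lower. Chemokine ligands (median 0.42) and C-type lectins (0.39) are at the top, and respiratory chain subunits (-0.24), S100 proteins (-0.24) and cytosolic ribosomal proteins (-0.23) at the bottom.

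Housekeeping groups shared a small difference towards WT, whose size depended on the scaling of the arrays. All 26 cytosolic ribosomal protein genes listed were below 0 (median -0.23), a list without Rpl39, which was at 1.69. Also below 0 were 26 of 29 respiratory chain subunits (median -0.24) and all 12 cathepsins and cystatins (median -0.19), with 1 gene past 1.5-fold among them. After quantile normalization of the arrays, 20 of 26 ribosomal protein genes (median -0.05), 23 of 29 respiratory chain subunits (median -0.15) and 9 of 12 cathepsins and cystatins (median -0.06) were below 0. The gene past 1.5-fold was Rps27, with 104.3 in KO and 185.7 in WT, for which the authors' deposited table gave 0.0. In Ly6Clow these medians were -0.09, -0.08 and -0.07. The ratio moved with 2 general properties of genes. With the genes ranked by genomic span and cut into 5 groups of equal size, shortest first, the median log2 ratio in Ly6Chigh was -0.16, -0.08, -0.03, 0.03 and 0.07, whereas in Ly6Clow it was -0.04, -0.02, -0.03, -0.03 and -0.03. With 5 groups by signal, dimmest first, it was 0.01, 0.00, 0.00, -0.03 and -0.11 in Ly6Chigh. The span relation was present at each level of signal. Within each of the 5 signal groups, the genes of the longest and of the shortest span, taken as before, had medians of 0.09 and -0.12, 0.08 and -0.11, 0.09 and -0.13, 0.09 and -0.15, and -0.01 and -0.20. Ribosomal protein genes had a median span of 3.88 kb and respiratory chain genes one of 7.13 kb, against 24.0 kb over all genes. Genes past 1.5-fold higher had a median span of 31.2 kb and genes past 1.5-fold lower one of 11.2 kb. The part of span, signal or RNA preparation in these list medians was not tested.

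**Figure D5:**
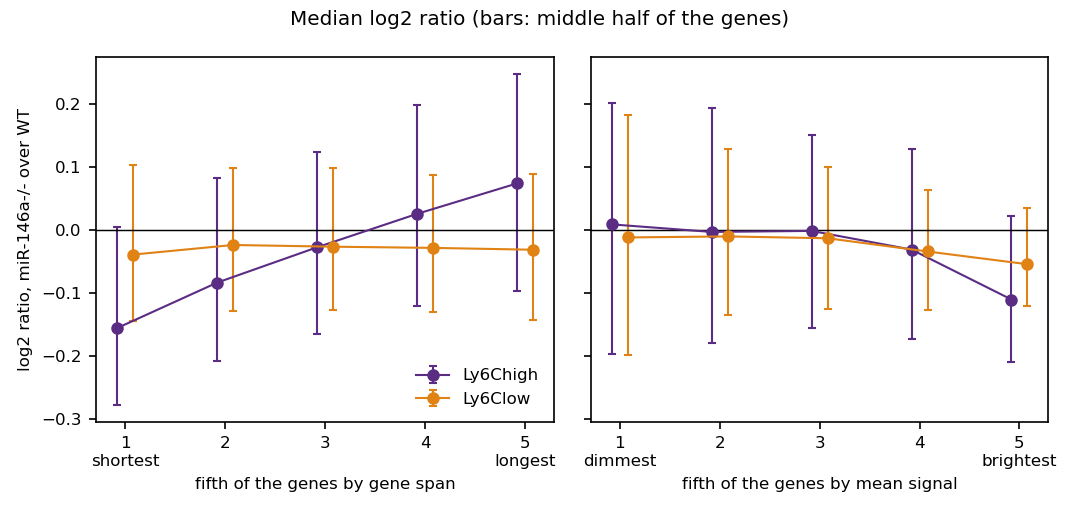
Median log2 ratio of KO over WT (points; bars span the interquartile range over genes) in 5 equal groups of genes by genomic span (left) and 5 by mean signal (right), for Ly6Chigh and Ly6Clow. The Ly6Chigh medians are lowest in the shortest genes (-0.16) and highest in the longest (0.07), whereas those of Ly6Clow stay between -0.04 and -0.02.

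The Ly6Clow pools give a separate pair of arrays, although from the same genotypes. If the lysis buffer differed by genotype, the 2 pairs share that too. Of the 17 genes called higher in Ly6Chigh, 13 were also above 0 in Ly6Clow, and of the 11 called lower, 8 were below 0. These counts take any signal, and include Ccl2 and Trem2, which were Absent in both Ly6Clow pools. At 1.5-fold the numbers were 112 of 145 above 0 and 88 of 117 below 0, while of all genes 3041 were above 0 and 4012 below 0 in Ly6Clow. Few of these differences were as large in Ly6Clow. Of the genes past 1.5-fold in Ly6Chigh, 27 were past 1.5-fold in the same direction in Ly6Clow and 1 in the opposite direction. The knockout ratio spread less in Ly6Clow, with an SD of 0.221 across 6964 genes, against 0.274 in Ly6Chigh, and 20 genes (0.287%) were past 2-fold there. At 1.5-fold the Ly6Clow pools gave 130 genes (1.87%), 70 higher (1.01%) and 60 lower (0.862%). Neither spread has a replicate to set it against.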

How the data were processed

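RNA of 4 monocyte pools was measured, 1 array each, so groups have no replicates and no test was made. The number of arrays limits the precision. The authors' deposited signal intensity values are linear, with a mean of 150.0 per array after the lowest and highest 2% are left out. The submitters ran Expression Console 1.2.1 for the raw data (labels' design text), and their processing notes add GCOS. The signal algorithm and genome build are not given in the sources used here. Beside each signal stands the authors' detection call with its p-value, of which the calls were used. The authors' deposited table also has a signed fold change and a change call for 1 chip against 1 chip. That fold moves in steps of 0.1 on the log2 scale, and its median absolute difference from the ratio of the signals was 0.061.

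Of 45101 probe sets, 34958 carried 1 gene symbol, 932 several and 9211 none. A gene was read from whichever of its probe sets was brightest on average in the 4 pools. Ratios used no offset. Names, gene order, span and sequences came from RefSeq tables of GRCm38.p6. The genes named are those past 2-fold, up to 4 per list past 1.5-fold, literature targets with sort and lineage genes, up to 12 each way at signal 500 with several concordant probe sets, and the genes beside the limits. Further list members are named to show the spread of a list. The members and the lists (37 of pathways, 15 of cell markers) were chosen with earlier results of these data known. Counts and medians were recomputed with other scalings, offsets, probe set rules, signal minima and fold limits. Ly6c1, Ly6c2 and some other list members were not analysed here. Python 3.11.15, pandas 2.3.3 and numpy 2.4.6 were used.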

Additional observations from a re-analysis of the deposited data

Results flagged for a closer look

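For 7 of the genes past 2-fold in Ly6Chigh, the ratio of KO over WT had the opposite sign in Ly6Clow, with 1 array on each side, and the difference between the subsets was not tested. The log2 ratio in Ly6Chigh minus that in Ly6Clow was -2.06 for Clec2d, -1.35 for Ccdc85b, -1.26 for Lcn2, 1.29 for Tcl1b3, 1.26 for Arid5a, 1.17 for Gcnt2 and 1.11 for Cttnbp2nl. Lcn2 (19.2 in KO and 18.8 in WT), Cttnbp2nl (12.9 in KO and 13 in WT) and Arid5a (44.6 in KO and 50.1 in WT) had little signal in Ly6Clow, so their ratio there says little. Clec2d (594.9 in KO and 477.1 in WT) and Gcnt2 (2805.3 in KO and 3095.4 in WT) were well measured in Ly6Clow.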

How the results depend on the processing

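The count of 28 genes past 2-fold (17 higher and 11 lower in KO) was 28 with median centring (19 and 9) and 29 with quantile normalization (17 and 12), sharing 26 genes with the 28 each time. Adding 32 to both signals left 17 genes (11 and 6) and adding 16 left 19 (13 and 6), all among the 28. Without a signal minimum 338 genes passed (207 and 131). Limits of 1.5-fold and 3-fold gave 262 (145 and 117) and 4 (3 and 1). The authors' deposited change calls numbered 1417 (651 and 766). The mean over all probe sets called 40 genes and shared 18. Trem2 reversed, at 0.67 with the mean over its probe sets and at 2.39 without probe sets whose names end in _s_at, _x_at or _a_at, where its Absent probe set is used. Of the other values of named genes, 949 kept their call, or the lack of one, 42 lost it and 13 gained one. Among genes not called, the sign changed 23 times in 15 genes, for example with the mean over all probe sets in Scel (-0.17 against 0.98 as reported) and Lifr (-0.03 against 0.71). Lpl fell under the limit with either scaling, Lpl and Pttg1 when their probe sets were averaged, and Gpr146 in 5 settings. Wdfy1 stayed past 2-fold throughout (-1.83 to -1.23), but averaging Absent probe sets too (-1.74) took its signal under 100. Of list medians, 308 stayed within 0.1 and 36 moved further, and 16 lists changed sign in at least 1 alternative. These include class I presentation with quantile normalization (0.05 against -0.10 as reported), and, with the mean over all probe sets, mitosis (0.29 against -0.22) and red pulp macrophages (0.22 against -0.35). Traf6 (-0.00) and Relb (-0.03) turned sign with quantile normalization, while the medians of C-type lectins (0.31 to 0.41), interferon response genes (0.18 to 0.25), ribosomal proteins (-0.23 to -0.05) and respiratory chain subunits (-0.24 to -0.15) kept theirs under each alternative run. Median centring moved all ratios by 0.018. No paired analysis was possible because each group has 1 array.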
